A study of Rattus norvegicus with 6 samples.

Results

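The genes of the TGF-beta and BMP pathways were examined in rat endometrial epithelial organoids (rEEOs) and rat bone marrow mesenchymal stem cells (rBMSCs). Members were taken by gene symbol, covering the TGF-beta, BMP, GDF and activin ligands, their latency proteins, receptors, Smads, Smad ubiquitin ligases, extracellular antagonists, nuclear corepressors and the Id genes. A symbol also had to carry at least 10 reads summed over the 6 libraries, which left 51 members of the 13728 genes held. Another 8 symbols of the pattern fell under this limit. The members with the fewest reads in all were Chrdl1 with 20, Bmp7 with 67 and Bmp4 with 74, while Acvr1c with 9, Fstl5 with 5 and Nog with 4 lay just outside.

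Bulk RNA-seq of polyadenylated RNA had been run on 3 rEEOs samples and 3 rBMSCs samples, and the comparison asks how the transplanted cell types differ. The rEEOs were grown from uterine gland fragments of female Sprague-Dawley rats aged 5 weeks and kept in Matrigel for between 3 and 5 passages. Their expansion medium held recombinant noggin, which binds and blocks BMP ligands, and A83-01, an inhibitor of the TGF-beta and activin type I receptor kinases, along with EGF, FGF10, Wnt3a, R-spondin-1 and Y27632. The rBMSCs were bought as red fluorescent protein-labeled cells and grown in dishes in DMEM/F12 with serum, and the age and sex of their donors are not given in the sources used here. Cell type, origin, medium and culture format therefore differed together and cannot be told apart. No label ties the 3 samples of a cell type to separate animals or cultures, so p-values measure the spread between these samples, which may be technical.

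TGF-beta family ligands are secreted as dimers, and the TGF-betas leave the cell bound to a latency peptide that must be released before they can act. An active ligand joins type II and type I receptor kinases, which phosphorylate Smad2 and Smad3 for TGF-beta and activin, or Smad1, Smad5 and Smad9 for BMP. These Smads enter the nucleus with Smad4, while Smad6, Smad7, the Smurf ligases, Ski proteins and secreted antagonists restrain the signal. In the endometrium the family is known for its part in decidualization, gland development, menstrual repair and fibrosis, and in stromal cells TGF-beta is a known inducer of matrix and contractile genes.

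Expected counts summed to between 10457958 and 13883993 per rEEOs library and between 14892115 and 15421501 per rBMSCs library. Epithelial markers matched the label of the rEEOs, with 6 of 6 held and a summed level of 4220 to 4780 TPM (a level scaled by transcript length and library total) in rEEOs against 2.43 to 2.85 in rBMSCs, where Epcam, Krt19, Cdh1 and Cldn4 were listed at 0. The 8 mesenchymal stromal markers summed to 172 to 298 TPM in rEEOs, nearly all of it Vim, and to 35600 to 38000 in rBMSCs, and Thy1 and Pdgfrb were at 0 in rEEOs. For smooth muscle, 3 of 5 markers were held, at 0.72 to 1.08 TPM in rEEOs and 5770 to 6540 in rBMSCs, with Des at 0 in rEEOs. Nearly all of either sum was Acta2. The 4 of 5 endothelial markers held summed to at most 0.34 TPM in rEEOs and 0.5 in rBMSCs, and the 1 of 4 haematopoietic markers held, Cd34, reached 0.07 and 0 TPM. The 5 macrophage markers summed to 32.8 to 134 TPM in rEEOs, nearly all of it Cd68, and 0.29 to 0.79 in rBMSCs. The rEEOs libraries differed more among themselves than the rBMSCs libraries, with a chi-square per degree of freedom between pairs of 57.24 to 235.62 against 3.09 to 9.79, and the 2 pairs with rEEOs replicate 1 had the highest values.

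Of the 51 members, 47 had enough reads for the test, and 32 of these were lower and 8 higher in rEEOs than in rBMSCs (edgeR quasi-likelihood test, Benjamini-Hochberg adjusted p under 0.05). Over all 10607 genes tested, 30.2% were lower and 33.3% higher, whereas among members the shares were 68.1% and 17.0%. With a log2 fold change beyond 2 as well, 20 members were lower and 7 higher, or 42.6% and 14.9%, against 13.3% and 16.3% of all genes. The median log2 fold change, rEEOs minus rBMSCs, was -1.60 over the members and 0.08 over all genes, and the quartiles of the members lay at -4.23 and -0.52. Without the correction for library composition, all genes shifted to a median of 0.46 and 68.8% of calls were higher in rEEOs rather than 52.5%, while the members stood at 27 lower and 8 higher. In bulk samples, fewer cells of a type and less RNA per cell cannot be told apart.

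**Figure D1:**
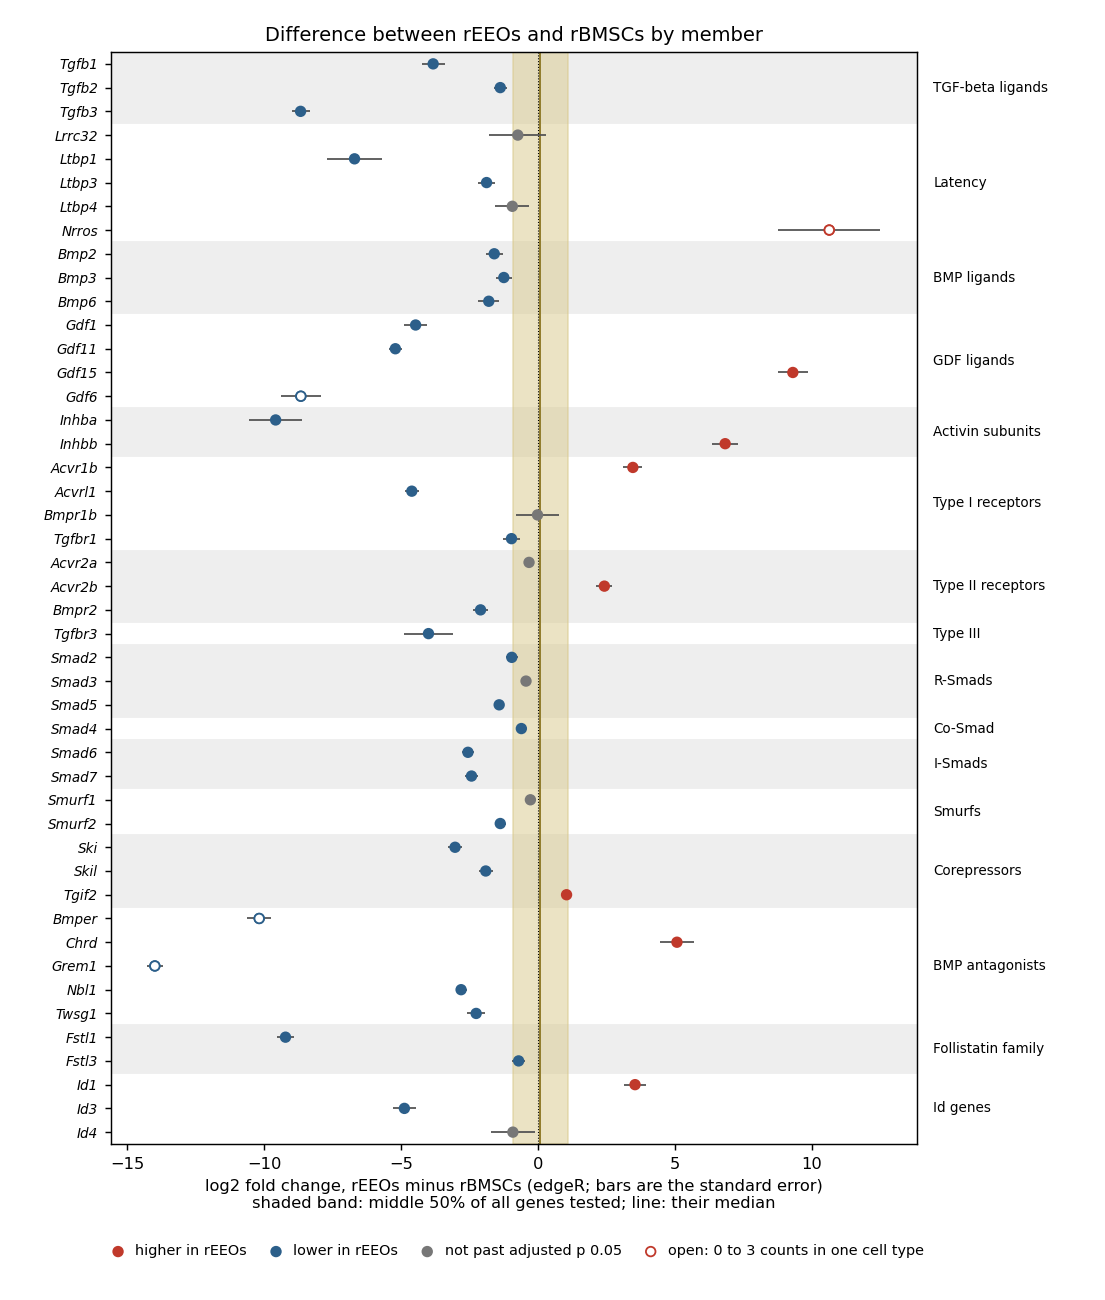
The log2 fold change of the members tested and reported here, 46 in all, grouped by role, with its standard error; red is higher in rEEOs, blue lower and grey not past an adjusted p of 0.05, and open circles mark members with 0 to 3 counts in a cell type. Most blue points spread to the left of the band that holds the middle of all genes, while Smad4 and Fstl3 lie inside it. Nrros, Gdf15, Inhbb, Chrd, Id1, Acvr1b and Acvr2b lie to the right, and Tgif2 lies inside the band near its right edge.

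Summed over the members, the rEEOs libraries held 1632.6, 2012.1 and 1862.2 TPM by replicate number, and the rBMSCs libraries 4303.3, 3931.8 and 4428.2 TPM. A single gene made up much of each sum. Fstl1 held between 53.5% and 54.8% of it in rBMSCs, and Gdf15 between 44.1% and 65.1% in rEEOs. With both left out, the sums were 646.9 to 942.9 TPM in rEEOs and 1829.0 to 2020.1 in rBMSCs.

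**Figure D2:**
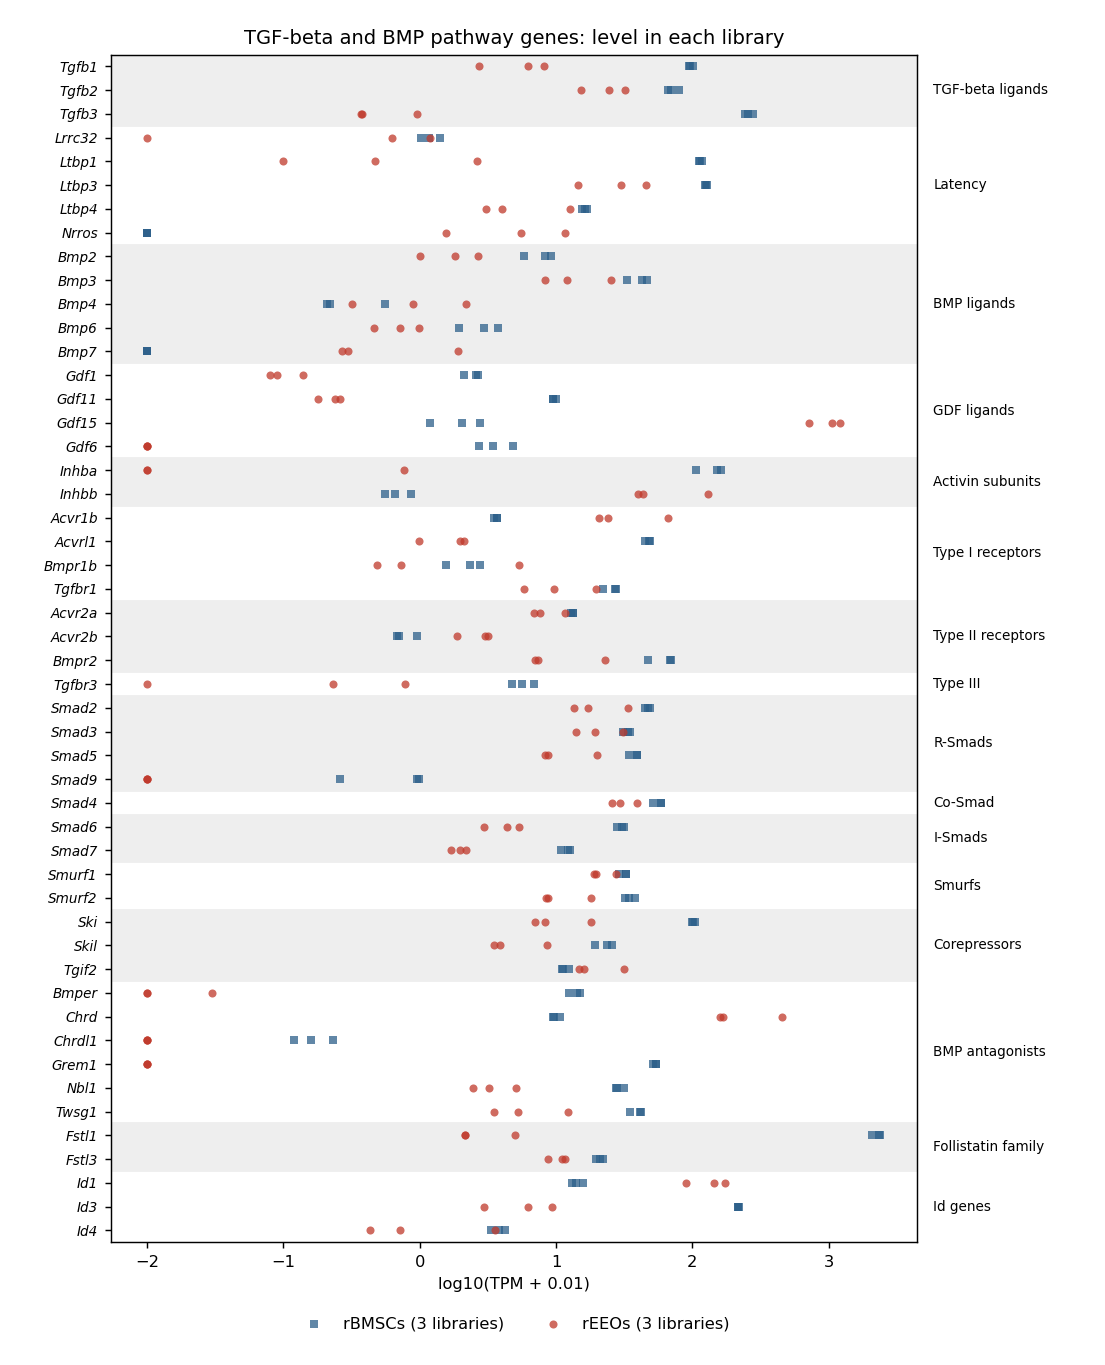
The level of 50 members in each of the 6 libraries, as log10(TPM + 0.01), with rEEOs as red circles and rBMSCs as blue squares; points at the left edge are listed at 0. The blue squares of most members sit close together, the red circles are more widely spread, and Fstl1 and Gdf15 reach the highest levels of each cell type.

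All 3 TGF-beta ligands were lower in rEEOs, as were 30.2% of all genes tested. Tgfb3 had the widest gap, and its rEEOs libraries, given here and throughout by replicate number, stood at 0.94, 0.37 and 0.36 TPM, compared to 242.25, 255.21 and 278.66 TPM for rBMSCs (log2 fold change -8.67 ± 0.33, SE, adjusted p = 8.04e-06). Tgfb1, the most widely expressed of the ligands in the body, stood at 6.21, 8.09 and 2.73 TPM against 95.04, 101.79 and 96.50 TPM (log2 fold change -3.83 ± 0.42, adjusted p = 0.000366). Tgfb2 differed least, with 32.04, 24.39 and 15.28 TPM against 69.67, 66.34 and 79.48 TPM (log2 fold change -1.38 ± 0.23, adjusted p = 0.00247). No library of one cell type reached the range of the other for any of the 3. Since TPM is scaled by length, the ligands can be set against each other within a library. Tgfb2 made up 79.7% ± 4.8 (SD, n = 3) of the TGF-beta ligand transcripts of rEEOs and 16.8% ± 1.0 of those of rBMSCs, whereas Tgfb3 made up 1.8% ± 0.6 and 60.4% ± 0.9. The summed level of the 3 ligands was 30.1 ± 10.7 TPM in rEEOs and 428 ± 24.2 TPM in rBMSCs. The ligand transcript that led in organoids was thus the one with the smallest difference.

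Latency proteins tether the TGF-betas to matrix or to a cell surface. Ltbp1, which links latent TGF-beta to fibrillin and fibronectin fibers, was at 2.61, 0.09 and 0.46 TPM in rEEOs and at 113.40, 111.36 and 117.45 TPM in rBMSCs (log2 fold change -6.70 ± 1.01, adjusted p = 0.00148). Its low level in rEEOs varied widely, and without rEEOs replicate 1 the log2 fold change was -8.25. Of the 3 latent TGF-beta binding proteins held, Ltbp3 led in both cell types, at 45.62, 29.78 and 14.45 TPM against 128.05, 124.93 and 126.10 TPM (log2 fold change -1.88 ± 0.32, adjusted p = 0.00265). Ltbp2 was not analysed here. Ltbp4 ran from 3.05 to 12.65 TPM in rEEOs and from 15.45 to 16.77 TPM in rBMSCs without passing the test (log2 fold change -0.94 ± 0.62, adjusted p = 0.22), and without rEEOs replicate 2, its highest library, the value was -1.97 with an adjusted p of 0.00246.

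Of the surface anchors, Nrros was higher in rEEOs and Lrrc32 was not called. Nrros, which holds latent TGF-beta 1 on macrophages and microglia, was at 1.54, 11.73 and 5.55 TPM in rEEOs and had no read in any rBMSCs library, so that it was at least 65.9-fold higher against a floor of 3 counts per library (adjusted p = 0.00789), or at least 34.6-fold without rEEOs replicate 2. Floors and intervals given here cover counting error only. Of the macrophage markers, Cd68 alone followed the order of Nrros over the rEEOs libraries, at 31.78, 132.55 and 105.24 TPM. The other 4 stayed low and did not follow it. Adgre1 was at 0.48, 0 and 0.11 TPM, Aif1 at 0.48, 1.25 and 0.23, Csf1r at 0.05, 0 and 0.05, and Laptm5 at 0. The part of such cells in the Nrros value was not tested. Lrrc32, known as GARP and the anchor of latent TGF-beta on regulatory T cells and platelets, ran from 0 to 1.18 TPM in rEEOs and 1.01 to 1.41 TPM in rBMSCs, and the ranges overlapped (log2 fold change -0.74 ± 1.04, adjusted p = 0.553). That value rested on single libraries, at -0.14 without rEEOs replicate 2, where no read was listed, and -1.93 without rEEOs replicate 3.

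The BMP ligands were scarce in rEEOs, with a sum of 19.7 ± 11.8 TPM, compared to 51.8 ± 7.91 TPM in rBMSCs. Bmp3, an atypical member known to oppose osteogenic BMPs, led in both, at 25.29, 12 and 8.34 TPM in rEEOs and 42.82, 33.20 and 46.48 TPM in rBMSCs (log2 fold change -1.25 ± 0.30, adjusted p = 0.0113, and 0.0514 without the composition correction). Its share of the BMP ligand transcripts was 77.6% ± 1.0 and 78.6% ± 1.3, a difference smaller than the spread between libraries. The sum, the lead of Bmp3 and the shares are over 5 genes, Bmp2, Bmp3, Bmp4, Bmp6 and Bmp7. Bmp8a and Bmp8b lay outside the name pattern, and Bmp5, Bmp10 and Bmp15 were not analysed here. Bmp2, the ligand best known for decidualization of the stroma, ran from 1.00 to 2.67 TPM in rEEOs and from 5.85 to 9.23 TPM in rBMSCs (log2 fold change -1.60 ± 0.31, adjusted p = 0.00467). Bmp6 showed a like gap, between 0.45 and 0.97 TPM and between 1.93 and 3.76 TPM (log2 fold change -1.80 ± 0.38, adjusted p = 0.00659). Hence 3 of 3 BMP ligands tested among the members were lower in rEEOs, but none beyond a log2 fold change of 2. Of all genes tested, 30.2% were lower.

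Both BMP ligands among the members with too few reads for the test leaned to the organoids. Bmp4 was read 40, 15 and 6 times in the rEEOs libraries and 3, 3 and 7 times in the rBMSCs libraries, and the ranges overlapped. Bmp7 was read 52, 8 and 7 times in the rEEOs libraries and never in rBMSCs, at least 6.54-fold higher, and most of its reads came from replicate 1. When genes with a single count in any library were also tested, the adjusted p was 0.0526 for Bmp4 and 0.015 for Bmp7 over 13709 genes.

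Among the growth differentiation factors, Gdf15 stood alone in its direction and size. This stress-responsive cytokine, which signals through a neural receptor outside the usual Smad route, was at 720.51, 1067.05 and 1213.19 TPM in rEEOs and at 2.05, 1.17 and 2.77 TPM in rBMSCs (log2 fold change 9.30 ± 0.54, adjusted p = 3.02e-05). It was the most abundant member in every rEEOs library. The other 3 factors tested were lower in rEEOs. Gdf11, a close relative of myostatin that uses activin receptors, ran from 0.17 to 0.25 TPM in rEEOs and 9.47 to 10.01 TPM in rBMSCs (log2 fold change -5.21 ± 0.25, adjusted p = 1.55e-05). Gdf6, a BMP of joint and eye development, had no read in rEEOs and 2.73 to 4.83 TPM in rBMSCs, at least 16.3-fold lower (adjusted p = 0.000752). Gdf1 lay between 0.07 and 0.13 TPM and between 2.10 and 2.68 TPM (log2 fold change -4.47 ± 0.41, adjusted p = 0.000187). Its value is uncertain because the gene shares a transcript with Cers1, and a count in rEEOs was not whole.

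The activin beta subunits differed in opposite directions. Activins are dimers of these subunits, and the product of Inhba forms activin A while that of Inhbb forms activin B. Inhba was at 0.76, 0 and 0 TPM in rEEOs and 150.63, 106.68 and 162.76 TPM in rBMSCs (log2 fold change -9.58 ± 0.97, adjusted p = 0.000272). All 18 of its rEEOs reads came from replicate 1, and without that library it was at least 1300-fold lower against the floor. Inhbb was at 130.14, 40.20 and 43.24 TPM in rEEOs and 0.86, 0.65 and 0.55 TPM in rBMSCs (log2 fold change 6.83 ± 0.47, adjusted p = 5.39e-05). It made up 99.8% ± 0.3 of the subunit transcripts of rEEOs and 0.5% ± 0.1 of those of rBMSCs. The summed level of both subunits, 71.4 ± 51.5 TPM and 141 ± 29.5 TPM, differed far less than either subunit alone. The alpha subunit Inha, which turns an activin into an inhibin, was not analysed here.

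The start regions of this pair are shown because the subunits differed in opposite directions and their promoters are unlike in composition. Each is the stretch of 250 bases before the gene's start on its own strand, from RefSeq in the GRCr8 build, with the letters GGCGCC (read by Smad1 and Smad5) or TATAAA (the TATA box) in capitals.
Inhba, chr17:53804509-53804758, minus strand: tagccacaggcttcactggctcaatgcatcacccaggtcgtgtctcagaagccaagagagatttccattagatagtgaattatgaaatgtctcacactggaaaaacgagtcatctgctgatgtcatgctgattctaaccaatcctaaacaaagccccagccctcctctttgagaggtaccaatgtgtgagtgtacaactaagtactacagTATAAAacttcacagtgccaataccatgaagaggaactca
Inhbb, chr13:33089374-33089623, minus strand: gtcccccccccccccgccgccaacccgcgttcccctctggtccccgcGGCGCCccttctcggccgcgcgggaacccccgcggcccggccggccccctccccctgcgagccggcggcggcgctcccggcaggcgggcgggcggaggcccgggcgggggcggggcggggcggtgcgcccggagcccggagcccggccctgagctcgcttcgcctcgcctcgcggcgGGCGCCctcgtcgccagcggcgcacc
The Inhba stretch was 43.6% G and C, with TATAAA starting 40 bases before the gene's start. That of Inhbb was 86.8% G and C and held GGCGCC at 203 and 26 bases before its start, without TATAAA on either strand. These matches describe letters and do not show binding.

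The leading receptors also differed. Of the type I receptors, Acvr1b (ALK4), the receptor of activins, was higher in rEEOs at 65.92, 20.60 and 23.95 TPM, compared to 3.71, 3.48 and 3.70 TPM in rBMSCs (log2 fold change 3.46 ± 0.35, adjusted p = 0.000266). Acvrl1 (ALK1), a BMP9 receptor best known in endothelium, was at 2.10, 0.98 and 1.98 TPM in rEEOs and 44.89, 48.33 and 49.26 TPM in rBMSCs (log2 fold change -4.61 ± 0.26, adjusted p = 2.69e-05). The 4 endothelial markers held summed to at most 0.5 TPM in a rBMSCs library, where Cdh5 and Tie1 were listed at 0. Acvr1b accounted for 70.3% ± 4.0 of the type I receptor transcripts held in rEEOs and 4.6% ± 0.1 in rBMSCs, whereas Acvrl1 accounted for 3.7% ± 1.6 and 60.3% ± 3.4. The receptors Acvr1 and Bmpr1a were not analysed here, so these shares are over 4 genes.

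Tgfbr1 (ALK5), the type I receptor of TGF-beta, was at 19.78, 5.79 and 9.62 TPM in rEEOs and 27.37, 22.21 and 27.12 TPM in rBMSCs (log2 fold change -0.97 ± 0.31, adjusted p = 0.0312). This call was lost on leaving out any rBMSCs library or rEEOs replicate 3, with an adjusted p of 0.062 to 0.0957, and without the composition correction (adjusted p = 0.173). Its counts were not all whole, which means that some reads were shared with another transcript. Bmpr1b (ALK6), a BMP and GDF receptor, was at 5.35, 0.48 and 0.72 TPM in rEEOs and 2.33, 1.54 and 2.75 TPM in rBMSCs. The groups overlapped because of rEEOs replicate 1 (log2 fold change -0.02 ± 0.78, adjusted p = 0.983), and without it the value was -1.50 with an adjusted p of 0.0106.

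Of the type II receptors, which bind ligand and switch on the type I kinase, Bmpr2 was lower in rEEOs, at 22.78, 7.01 and 7.37 TPM against 70.14, 47.42 and 68.47 TPM (log2 fold change -2.10 ± 0.28, adjusted p = 0.000909). Acvr2b, an activin receptor, was the reverse, with 2.99, 3.15 and 1.87 TPM in rEEOs and 0.69, 0.67 and 0.94 TPM in rBMSCs (log2 fold change 2.42 ± 0.29, adjusted p = 0.000532). Acvr2a, its paralog, was at 11.68, 7.58 and 6.88 TPM against 13.41, 12.81 and 13.38 TPM and did not pass (log2 fold change -0.33 ± 0.14, adjusted p = 0.0816), although without rEEOs replicate 1 its adjusted p was 0.0214, and without the composition correction its sign turned to 0.05. Bmpr2 held 48.7% ± 11 of the type II transcripts in rEEOs and 81.3% ± 3.0 in rBMSCs, while Acvr2a held 38.9% ± 6.6 and 17.7% ± 2.9. Tgfbr2 was not analysed here. Tgfbr3, or betaglycan, which presents TGF-beta 2 and inhibin to the kinases, was at 0.77, 0 and 0.22 TPM in rEEOs and 6.85, 4.76 and 5.59 TPM in rBMSCs (log2 fold change -4.0 ± 0.90, adjusted p = 0.00821). Its value was -5.26 without rEEOs replicate 1.

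**Figure D3:**
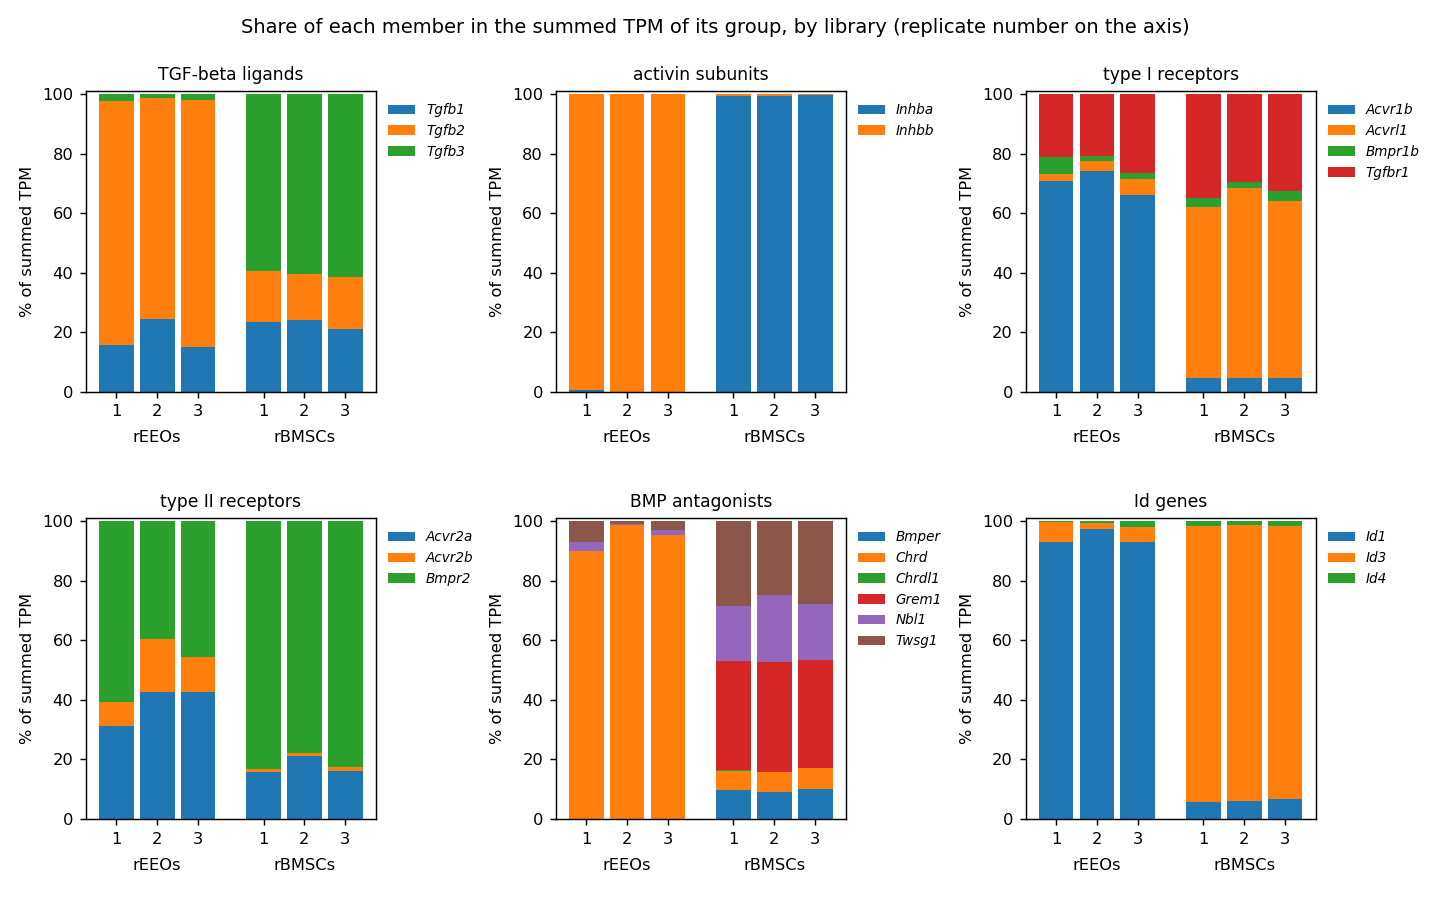
The share of each member in the summed TPM of 6 groups, as stacked bars for the 3 rEEOs and 3 rBMSCs libraries. The leading member differs between the cell types for the TGF-beta ligands, activin subunits, type I receptors, BMP antagonists and Id genes in every library, while Bmpr2 leads the type II receptors of rBMSCs and, in rEEOs replicate 2, Acvr2a has the larger share.

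The Smads that carry the signal had log2 fold changes between -1.42 and -0.44 where tested. Smad2 was at 33.73, 13.62 and 17.20 TPM in rEEOs and 47.42, 45.06 and 49.28 TPM in rBMSCs (log2 fold change -0.96 ± 0.21, adjusted p = 0.00812). Smad3 was at 31.05, 19.30 and 13.96 TPM against 35.20, 31.21 and 33.78 TPM and did not pass (log2 fold change -0.44 ± 0.20, adjusted p = 0.0937), but did so without rEEOs replicate 1 (log2 fold change -0.57, adjusted p = 0.0151). Smad4, the common partner, was at 39.02, 29.43 and 25.68 TPM against 59.06, 51.23 and 58.85 TPM (log2 fold change -0.61 ± 0.13, adjusted p = 0.00602). In TPM, the highest rEEOs library of each of these was replicate 1, while by library-scaled count that of Smad4 was replicate 2. The Smad2 and Smad4 calls were lost without the composition correction, at an adjusted p of 0.0778 and 0.149.

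On the BMP side, Smad5 was at 19.85, 8.36 and 8.73 TPM in rEEOs and 39.37, 34.04 and 39.41 TPM in rBMSCs (log2 fold change -1.42 ± 0.16, adjusted p = 0.000443). Smad9 had no read in rEEOs and 38, 58 and 3.26 counts in rBMSCs, at least 10.6-fold lower, with too few libraries above 10 counts for the test. The third rBMSCs library was far below the other two, and its count was not whole. When genes with a single count in any library were also tested, the adjusted p of Smad9 was 0.0197. Smad1 was not analysed here.

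Both inhibitory Smads were lower in rEEOs. Smad6, which favors BMP receptors as its target, was at 5.33, 4.38 and 2.93 TPM in rEEOs and 31.41, 30.50 and 28.01 TPM in rBMSCs (log2 fold change -2.56 ± 0.21, adjusted p = 0.000108). Smad7, a feedback inhibitor of TGF-beta receptors whose own gene is induced by the pathway, was at 1.70, 1.97 and 2.18 TPM against 12.64, 10.88 and 12.33 TPM (log2 fold change -2.43 ± 0.24, adjusted p = 0.000257). Their share of all Smad transcripts held was 4.6% ± 0.9 and 2.3% ± 0.9 in rEEOs, compared to 13.8% ± 1.2 and 5.5% ± 0.1 in rBMSCs, while Smad4 held 34.8% ± 4.4 and 25.9% ± 0.7.

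The ubiquitin ligases and corepressors also restrain the signal. Smurf2, which marks Smads and receptors for breakdown, was at 18.19, 8.75 and 8.40 TPM in rEEOs and 37.76, 32.09 and 34.59 TPM in rBMSCs (log2 fold change -1.38 ± 0.20, adjusted p = 0.00138). Smurf1 was at 27.64, 19.79 and 18.95 TPM against 32.73, 29.10 and 32.47 TPM and did not pass (log2 fold change -0.28 ± 0.11, adjusted p = 0.0699), while DESeq2 gave an adjusted p of 0.0279, leaving out rEEOs replicate 1 gave 0.0251, and without the composition correction the sign turned to 0.10. Ski, which binds Smads on DNA and blocks transcription, was at 18.12, 8.30 and 6.98 TPM in rEEOs and 101.77, 99.96 and 105.44 TPM in rBMSCs (log2 fold change -3.03 ± 0.26, adjusted p = 0.000142). Its relative Skil ran from 3.51 to 8.62 TPM and from 19.23 to 25.62 TPM (log2 fold change -1.91 ± 0.25, adjusted p = 0.000833). Tgif2, a homeobox corepressor, was the exception at 31.71, 14.73 and 16.09 TPM in rEEOs and 10.99, 12.39 and 11.16 TPM in rBMSCs (log2 fold change 1.04 ± 0.20, adjusted p = 0.00464). The Tgif2 call was lost when TPM was tested with limma, at an adjusted p of 0.0775 or 0.0779 by the pseudocount.

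Secreted BMP antagonists divided sharply between the cell types. Chrd, or chordin, which sequesters BMPs until a tolloid protease cuts it, was at 158.63, 457.70 and 168.32 TPM in rEEOs and 9.64, 9.57 and 10.73 TPM in rBMSCs (log2 fold change 5.07 ± 0.62, adjusted p = 0.000589). Replicate 2 was high among the rEEOs, and without it the log2 fold change was 4.25. Grem1, or gremlin, had no read in rEEOs and 54.06, 51.66 and 54.49 TPM in rBMSCs, at least 662-fold lower (adjusted p = 1.47e-05).

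Bmper, which can restrain or aid BMP4 by dose, had 1 read in rEEOs against 14.31, 12.55 and 14.98 TPM in rBMSCs, a ratio of rBMSCs to rEEOs of 1580 with a 95% counting interval of 284 to 62600 (adjusted p = 1.18e-05). That read came from rEEOs replicate 1, and without this library the gene was at least 155-fold lower. Twsg1, which joins chordin and BMP in one complex, was at 12.30, 3.48 and 5.24 TPM in rEEOs and 41.63, 34.74 and 41.91 TPM in rBMSCs (log2 fold change -2.26 ± 0.33, adjusted p = 0.00134). Nbl1, of the DAN family like Grem1, was at 5.12, 2.45 and 3.2 TPM against 27.42, 31.53 and 28.16 TPM (log2 fold change -2.81 ± 0.20, adjusted p = 6.93e-05). Chrdl1, under the limit of the test, had no read in rEEOs and 9, 5 and 6 counts in rBMSCs, at least 2.17-fold lower. When genes with a single count in any library were also tested, its adjusted p was 0.00988.

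Of the 5 antagonists tested and described here, 4 were thus lower in rEEOs and Chrd alone was higher. Among all genes tested, 30.2% were lower and 33.3% higher. The summed levels of these genes and Chrdl1, 272 ± 166 TPM in rEEOs and 146 ± 5.26 TPM in rBMSCs, differed by less than the SD of the rEEOs libraries, and Chrd formed 94.7% ± 4.3 and 6.8% ± 0.3 of them. Set against a ligand, Chrd transcripts were 59.4, 253 and 168 times those of Bmp2 in the rEEOs libraries and 1.04, 1.64 and 1.29 times in the rBMSCs libraries. Bmp2 is a minor ligand here, with 9.7% ± 1.8 of the BMP ligand transcripts in rEEOs and 15.0% ± 1.8 in rBMSCs. Ratios to the leading ligand, Bmp3, would be smaller in every library. The gene for noggin, Nog, had 4 reads over all 6 libraries. The noggin added to the organoid medium is a protein and is not counted as reads.

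In the follistatin family, Fstl1 had the highest level of any member in rBMSCs, at 2359.65, 2101.71 and 2405.34 TPM, and stood at 5.0, 2.15 and 2.15 TPM in rEEOs (log2 fold change -9.22 ± 0.30, adjusted p = 5.16e-06). Its product is a secreted glycoprotein of mesenchymal cells. Fstl3, which binds activin and myostatin, was at 11.73, 11.11 and 8.66 TPM in rEEOs and 19.79, 22.09 and 21.04 TPM in rBMSCs (log2 fold change -0.71 ± 0.24, adjusted p = 0.0377). The Fstl3 call was lost without the composition correction (adjusted p = 0.225), with the replicate block (0.0871) and on leaving out any rBMSCs library or rEEOs replicate 3 (0.0893 to 0.128). Follistatin itself, Fst, was not analysed here.

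The Id genes are direct targets of BMP Smads and encode proteins that keep basic helix-loop-helix factors off DNA. They did not move together. Id1 was at 89.41, 143.31 and 173.16 TPM in rEEOs and 13.10, 13.90 and 15.85 TPM in rBMSCs (log2 fold change 3.54 ± 0.39, adjusted p = 0.000392). Id3 was at 6.25, 2.95 and 9.29 TPM against 217.87, 219.65 and 218.03 TPM (log2 fold change -4.88 ± 0.41, adjusted p = 0.000123). Thus Id1 transcripts were 14.3, 48.6 and 18.6 times those of Id3 in the rEEOs libraries and 0.0601, 0.0633 and 0.0727 times in the rBMSCs libraries. Id4 was at 0.42, 0.71 and 3.57 TPM in rEEOs and 4.18, 3.32 and 3.83 TPM in rBMSCs, with overlap from rEEOs replicate 3 (log2 fold change -0.92 ± 0.81, adjusted p = 0.347), and without that library it was -2.48 with an adjusted p of 0.00905. The summed level of the 3 genes was 143 ± 45.1 TPM in rEEOs and 237 ± 1.3 TPM in rBMSCs. Id2 was not analysed here.

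The start regions of Id1 and Id3 are printed in the same way as those of the activin subunits, since these paralogs share regulators yet differed in opposite directions.
Id1, chr3:161671314-161671563, plus strand: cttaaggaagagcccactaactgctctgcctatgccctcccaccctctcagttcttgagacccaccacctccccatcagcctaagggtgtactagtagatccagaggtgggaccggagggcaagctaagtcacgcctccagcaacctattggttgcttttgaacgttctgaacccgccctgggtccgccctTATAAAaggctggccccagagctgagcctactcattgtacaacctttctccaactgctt
Id3, chr5:153656041-153656290, plus strand: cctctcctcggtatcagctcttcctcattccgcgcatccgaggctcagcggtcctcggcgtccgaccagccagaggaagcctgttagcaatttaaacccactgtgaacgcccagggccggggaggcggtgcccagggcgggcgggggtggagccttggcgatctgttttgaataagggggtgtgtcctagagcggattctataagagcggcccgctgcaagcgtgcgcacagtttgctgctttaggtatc
The Id1 stretch was 54.8% G and C with TATAAA starting 59 bases before the start, and that of Id3 was 61.2% G and C without it. Neither held GGCGCC. The letters CAGACA were absent from both strands of either stretch, as was the palindrome GTCTAGAC, which says only that these letters are not in this window.

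Promoters, from 250 bases before to 50 after the start, were found for 42 of the 51 members. GGCGCC, which reads the same on both strands, was in 18 of these (42.9%), compared to 11.8% of 27457 promoters of all genes and 21.8% of the 8374 promoters of genes tested. The member promoters were also richer in G and C, with a median of 69.5% against 52.3% and 61.0%. Of the members described above, those with GGCGCC included Inhbb, Acvr1b, Chrd, Smad7, Fstl1 and Grem1, so it was found with genes higher and lower in rEEOs. CAGACA, or TGTCTG on the other strand, which Smad3 and Smad4 read, was in 6 of 42 (14.3%), namely Bmp3, Bmp4, Chrd, Fstl3, Inhba and Smad9, against 20.8% of all promoters and 16.2% of those tested. GTCTAGAC, the palindrome made of its core, was in none of the members and 0.2% of either set. TATAAA, or TTTATA on the other strand, was in 5 of 42 (11.9%), against 14.3% and 6.4%.

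Members varied more between rEEOs libraries than between rBMSCs libraries. The range of log2(CPM + 1), where CPM is the library-scaled count, over the 3 libraries had a median of 0.77 in rEEOs and 0.18 in rBMSCs, compared to 0.64 and 0.17 over all genes tested. It was wider in rEEOs for 41 of 47 members and for 9418 of all 10607 genes tested. Nrros (range 3.06), Ltbp1 (3.01), Lrrc32 (2.49), Ltbp4 (2.47), Chrd (2.07), Id4 (2.07) and Bmpr1b (2.04) varied most among rEEOs, and their highest library was not the same. Of the 45 members tested with a read in rEEOs, 23 (51.1%) were highest in replicate 1, 13 in replicate 2 and 9 in replicate 3, while over all genes the share in replicate 1 was 42.4%. Without rEEOs replicate 1, the members stood at 36 lower and 8 higher.

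**Figure D4:**
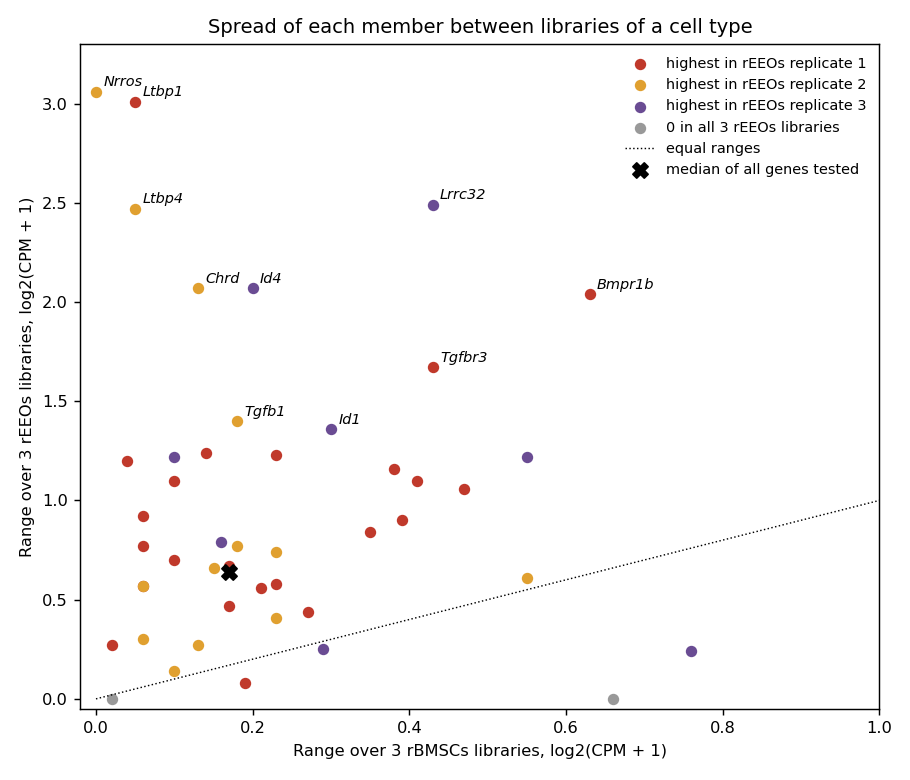
The range of 46 members tested over the 3 rEEOs libraries (vertical) and the 3 rBMSCs libraries (horizontal), in log2(CPM + 1), colored by the rEEOs library with the highest level; the cross is the median of all genes tested. Of the members, 41 lie above the line of equal ranges, and those with a range above 1.3 in rEEOs are named.

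Genes that act on the same pathway but were not chosen by the member rule were counted from a list of partners. Of 44 held, 34 were tested, and 21 were lower and 7 higher in rEEOs, with a median log2 fold change of -0.94. The shares were 61.8% and 20.6%, against 30.2% and 33.3% of all genes tested. Beyond a log2 fold change of 2, 10 were lower and 6 higher, or 29.4% and 17.6%, against 13.3% and 16.3% of all genes. Among the matrix genes of the list, Fbn1, Thbs1 and Thbs2 were lower in rEEOs, while Fbn2, or fibrillin-2, ran from 0.06 to 1.52 TPM in rEEOs and 0.09 to 0.22 TPM in rBMSCs (log2 fold change 1.97 ± 1.07, adjusted p = 0.149). The Fbn2 value rested on rEEOs replicate 1, and without that library it was -0.15 (adjusted p = 0.808). Fbn1, or fibrillin-1, had at most 0.01 TPM in a rEEOs library and 681.69, 576.16 and 739.13 TPM in rBMSCs (adjusted p = 5.16e-06), and without the library with its only read, rEEOs replicate 2, it was at least 24200-fold lower. Thbs1, whose product thrombospondin-1 releases TGF-beta from latency, was at 9.59, 6.17 and 10.07 TPM against 3237.54, 3131.30 and 3742.79 TPM (log2 fold change -8.37 ± 0.32, adjusted p = 8.04e-06). Thbs2 was at 0.03, 0 and 0.13 TPM against 783.95, 698.68 and 760.39 TPM (log2 fold change -13.49 ± 0.84, adjusted p = 3.75e-05, and -15.34 without rEEOs replicate 3).

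Bgn, or biglycan, which binds TGF-beta, was at 0.40, 0.37 and 0.59 TPM in rEEOs and 3438.51, 3276.33 and 3349.48 TPM in rBMSCs (log2 fold change -12.58 ± 0.37, adjusted p = 4.70e-06). The co-receptor Eng, or endoglin, which is also on the mesenchymal marker list, was at 0.35, 0.71 and 0.59 TPM against 66.53, 70.60 and 62.05 TPM (log2 fold change -6.83 ± 0.37, adjusted p = 2.27e-05). Tll1, a tolloid protease that cuts chordin, had no read in rEEOs and 70.52, 61.23 and 72.26 TPM in rBMSCs, at least 1060-fold lower (adjusted p = 1.55e-05). Its related protease gene Bmp1 was lower as well.

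Partners that were higher in rEEOs included the integrins that open latent TGF-beta on epithelia. Itgb6, the beta subunit of integrin alpha v beta 6, was at 13.60, 7.59 and 9.28 TPM in rEEOs and 0, 0.08 and 0 TPM in rBMSCs (log2 fold change 8.47 ± 0.69, adjusted p = 0.000107), and without rBMSCs replicate 2 it was at least 170-fold higher. Itgb8 was also higher, at 42.47, 20.24 and 12.37 TPM against 2.97, 2.2 and 2.75 TPM (log2 fold change 3.41 ± 0.36, adjusted p = 0.000333), whereas their shared partner Itgav was lower (log2 fold change -1.42 ± 0.23, adjusted p = 0.00192). Sostdc1, a secreted antagonist of BMP and Wnt, was at 61.73, 121.69 and 63.66 TPM in rEEOs and had no read in rBMSCs, at least 486-fold higher (adjusted p = 0.000518). The convertase gene Pcsk6 was at 540.62, 141.58 and 120.64 TPM against 24.79, 24.14 and 26.55 TPM (log2 fold change 3.52 ± 0.50, adjusted p = 0.00112), and at 2.82 without rEEOs replicate 1. Other convertases of the list differed in direction. Pcsk5 was lower (log2 fold change -2.26 ± 0.28, adjusted p = 0.000677) and Furin higher (log2 fold change 1.24 ± 0.21, adjusted p = 0.0027). Pcsk6, Pcsk5, Furin, Itgb8, Itgav and Bmp1 were chosen after their values were seen.

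Transcripts widely used as readouts of TGF-beta were mostly lower in rEEOs, with 6 of 8 lower and 2 higher and a median log2 fold change of -5.32. By comparison, 30.2% of all genes tested were lower and 33.3% higher, with a median of 0.08. Acta2, the smooth muscle actin, was at 1.08, 0.79 and 0.65 TPM in rEEOs and 5584.20, 6332.13 and 6269.92 TPM in rBMSCs (log2 fold change -12.56 ± 0.29, adjusted p = 4.02e-06). Fn1, or fibronectin, was at 0.80, 0.03 and 0.24 TPM against 2921.06, 2444.23 and 2995.76 TPM (log2 fold change -12.82 ± 1.08, adjusted p = 0.000124, and -13.91 without rEEOs replicate 1). The transcription factor Snai2 had 2 reads in rEEOs and 76.07, 61.20 and 67.94 TPM in rBMSCs, a ratio of 542 with an interval of 150 to 4480 (adjusted p = 3.95e-05), and its reads all came from rEEOs replicate 1. These are stromal or smooth muscle genes as well, and the summed mesenchymal stromal markers were also lower in rEEOs. Acta2 is itself on the smooth muscle list and made up nearly all of its sum. The other smooth muscle markers held were lower too, with Cnn1 at a log2 fold change of -10.90 and Des without a read in rEEOs. Cell type and signal therefore cannot be told apart.

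Tgfbi, Pmepa1 and Tpm1 were the other 3 transcripts that were lower. Cdkn2b, the cell cycle inhibitor p15, went the other way at 10.16, 16 and 7.15 TPM in rEEOs and 0.05, 0.10 and 0.09 TPM in rBMSCs (log2 fold change 7.66 ± 0.59, adjusted p = 8.41e-05). Cdkn1a, or p21, was higher by a log2 fold change of 0.59 (adjusted p = 0.0432), a call that was lost on leaving out any rBMSCs library or rEEOs replicate 2 or 3 (adjusted p = 0.0869 to 0.133), with the replicate block (adjusted p = 0.0519) and with limma on TPM (adjusted p = 0.0783 and 0.0798 with pseudocounts of 1 and 0.1). For BMP readouts, 5 of 6 held were tested, and Dlx5 and Msx1 were higher while Hey1, Gata6 and Rgmb were lower. The shares were 40.0% higher and 60.0% lower, against 33.3% and 30.2% of all genes tested. The Msx1 call did not hold without rBMSCs replicate 2 (adjusted p = 0.0504) or with limma on TPM (adjusted p = 0.0749), and the Rgmb call did not hold without the composition correction (log2 fold change -0.77, adjusted p = 0.0533). Pmepa1 and Rgmb are also on the partner list.

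**Figure D5:**
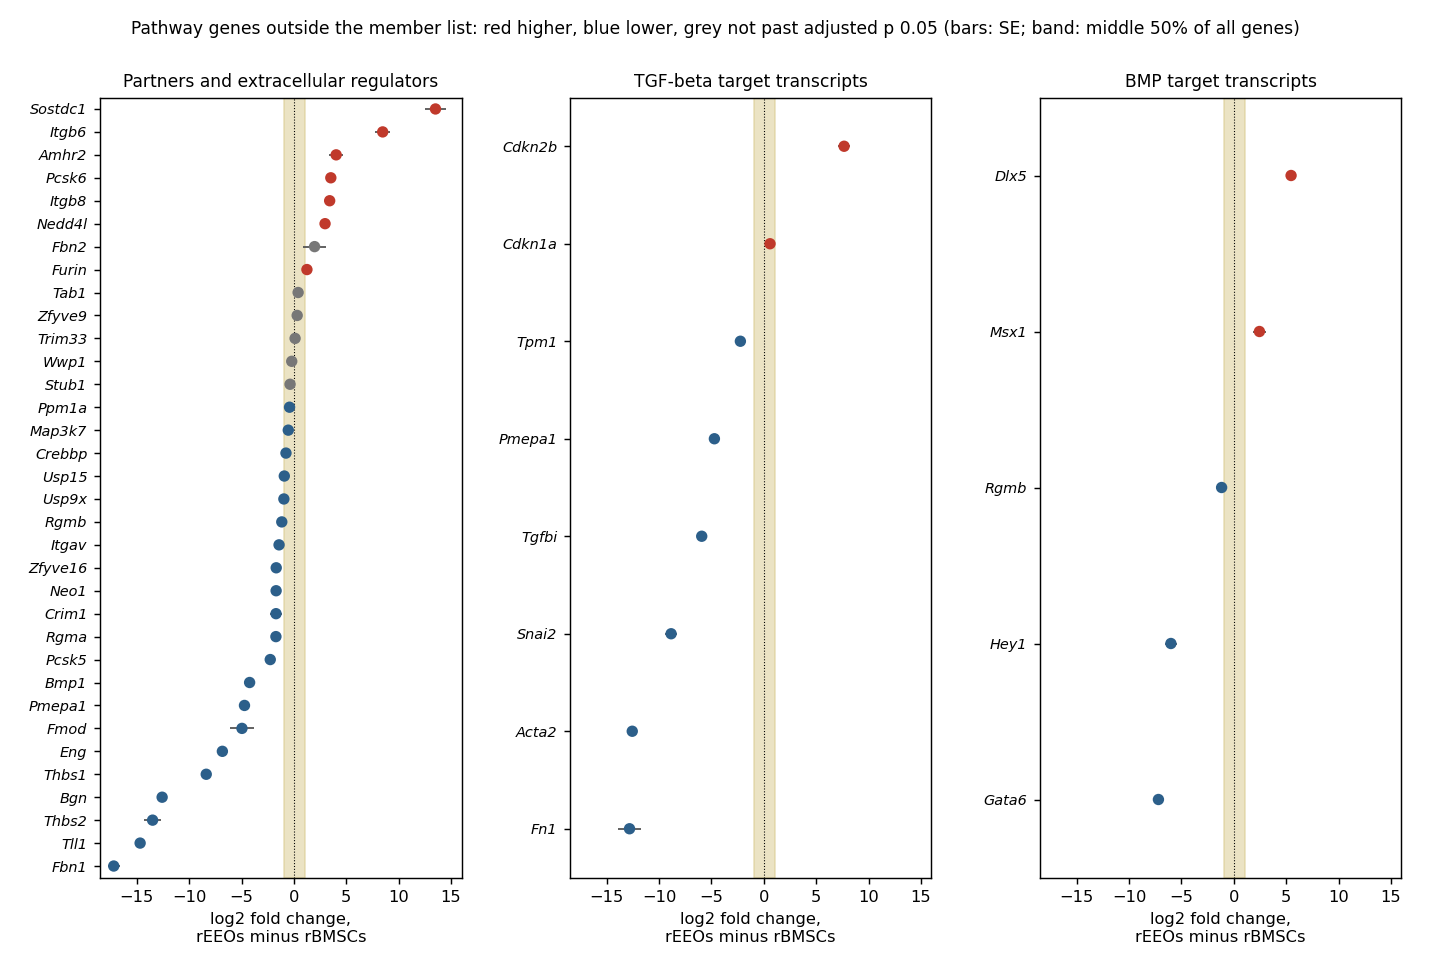
The log2 fold change with its standard error for 34 partners, 8 TGF-beta readouts and 5 BMP readouts that were tested, with red higher in rEEOs, blue lower and grey not past an adjusted p of 0.05. Partners run from Fbn1 at the lower end to Sostdc1 at the upper end, 6 of 8 TGF-beta readouts lie left of the band of all genes, and the BMP readouts fall on both sides.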

How the data were processed

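RNA from 3 rEEOs and 3 rBMSCs samples was sequenced by the authors. Per the labels and the study's methods, reads were trimmed with Trim Galore and aligned with Bowtie2 2.2.5 to Rnor_6.0, and RSEM gave an expected count and a TPM for each gene, as in the deposited table. Expected counts share reads between similar transcripts and were not whole for 7.31% to 8.44% of values. The FPKM values and the authors' columns of group averages were not used. The table held here breaks off within its last row, and its TPM sum to between 81.3% and 82.7% of a library's full total.

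After rounding, a gene needed 10 or more counts in 3 or more libraries, and 10607 genes were tested with edgeR 4.0.16 in R 4.3.3 (TMM factors of 0.866 to 1.196, quasi-likelihood F test, Benjamini-Hochberg adjustment over all genes tested). The standard error is the log2 fold change divided by the root of F. DESeq2 1.42.0 and limma 3.58.1 on TPM were alternatives, and the fits were tested on simulated data. Against a cell type with no read, a bound was taken over 3 counts per library, which is 0.181 to 0.262 CPM, and with 1 to 3 reads a ratio with an exact 95% binomial (Clopper-Pearson) counting interval is given. TPM were compared within groups of genes as mean ± SD. Promoters came from RefSeq (GRCr8), the first listed for each gene.

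A member counted in the totals and a readout gene are not reported here. The members and lists were chosen with earlier results of these data known. Values in every library are given for members past both thresholds with a mean of at least 10 TPM, for the leading member of each role in each cell type, and for all Smads, Ids and type I and II receptors, and for at most 12 genes outside the rule by size. Tables and plots were made in Python 3.11.15 with matplotlib 3.10.9, scipy 1.17.1, pandas 2.3.3 and numpy 2.4.6.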

Additional observations from a re-analysis of the deposited data

How the results depend on the processing

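Of 653 refits of single members over 14 other settings, 627 kept the side of the threshold, 16 lost the call and 10 gained it. No called member turned sign, while Bmpr1b, Acvr2a and Smurf1, none of them called, did so in at least 1 setting, and 35 of 47 members kept their side of the threshold in every setting. The count of members lower in rEEOs lay between 27 (library size only) and 34 (filter of 1 count, or limma on log2(TPM + 1)) over the settings that kept all libraries, and between 30 and 36 on leaving out a library, while the count higher lay between 7 and 9. An absolute log2 fold change above 1 in place of 2 gave 28 lower and 8 higher. The cause of the lost calls was not tested. With the replicate block, 31 members were lower and 8 higher, and Fstl3 was the member whose call was lost. No label pairs the samples by replicate number. Libraries of the same number had correlations of their deviations of 0.17, 0.193 and -0.175. Of the rEEOs libraries only replicate 2 correlated best with its own number. With 3 libraries per cell type, these values cannot decide whether the samples were paired. Depth limits the members with few counts, which are Chrdl1, Bmp4, Bmp7 and Smad9.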
